A study of Homo sapiens with 4 samples.

Results

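The nuclear genes of oxidative phosphorylation were taken as the protein-coding nuclear genes whose symbols begin with NDUF, UQCR or ATP5, together with SDHA to SDHD, CYC1 and the COX4 to COX8 genes. The rule found 98 of the 60612 genes in the count table. They were grouped by the complex their products belong to, with 46 genes for complex I, 4 for complex II, 10 for complex III, 18 for complex IV and 20 for complex V. Complex I was divided into 7 core subunits, 31 other genes and 8 NDUFAF assembly factors, which help to build the complex and are not part of it. NDUFA4 and NDUFA4L2 were counted with complex IV, because NDUFA4 is a complex IV subunit despite its name. 2 read-through genes, NDUFC2-KCTD14 and ATP5MF-PTCD1, came in by their symbols.

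RNA sequencing covered 4 libraries. Their cells were IMR-32, a long-established line grown from a human neuroblastoma, which carries extra copies of MYCN. All 4 came from cells with a doxycycline-inducible short hairpin RNA that were given doxycycline (1 µg/mL) for 48 h. The hairpin was a control in 2 libraries (shControl, which the labels also call wild type) and was directed against NeuroD1 in the other 2 (shNeuroD1). The study asked how the neuronal transcription factor NeuroD1 acts in such cells. Nothing in the labels tells if libraries sharing a group were grown as separate cultures, so p-values measure the spread between these libraries, which may be technical. The study also used more than 1 NeuroD1 hairpin under names that end like the titles of these libraries, so the 2 shNeuroD1 libraries may carry different hairpins.

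Oxidative phosphorylation makes most of the ATP of a resting cell at the inner mitochondrial membrane. Complexes I and II take electrons from NADH and succinate and pass them to coenzyme Q, complex III passes them on to cytochrome c, and complex IV passes them to oxygen. Protons pumped by complexes I, III and IV drive complex V, the ATP synthase. A few subunits are encoded by mitochondrial DNA and the rest by nuclear genes, many of which carry binding sites for NRF1 and for the ETS factor GABP in their promoters. Many cancer cells, neuroblastoma cells among them, use this pathway beside glycolysis.

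The libraries held 14665210 to 16482463 counts, of which the 98 genes took between 0.737% and 0.798%. Counts of genes of the mitochondrial genome made up 4.37% and 4.59% of the shControl libraries and 5.39% and 5.51% of the shNeuroD1 libraries. NEUROD1 itself stood at 418.9 and 414.5 CPM (counts per 1e6 counts, scaled by the trimmed mean of M values, TMM) in shControl and at 63.7 and 58.2 CPM in shNeuroD1, which is -2.77 on the log2 scale (SE 0.050, adjusted p 8.6e-29 by edgeR). Of 9 markers of sympathetic neuroblastoma 4 fell and 3 rose. GATA3, a transcription factor of the sympathetic lineage, lay at 143.4 and 147.9 CPM in shControl and at 218.6 and 214.5 CPM in shNeuroD1. The catecholamine enzymes TH and DBH were low, with 0.68 and 1.26 CPM of TH in shControl and 5.78 and 5.19 CPM in shNeuroD1. MYCN averaged 1985 ± 56.5 CPM in shControl against 1974 ± 7.49 CPM in shNeuroD1 (mean ± SD, n = 2 each). Of 4 blood cell markers, CD3E had 0 counts, and PTPRC and CD68 had at most 5 in a library. Of 7 fibroblast markers 1 fell and 4 rose, with a summed level of 87.9 and 92.3 CPM in shControl and 89.9 and 88.6 CPM in shNeuroD1, and COL1A2 and DCN at no more than 5 counts. Of 4 Schwann cell markers 2 rose, with a summed level of 5.16 and 5.04 CPM in shControl and 8.41 and 9.59 CPM in shNeuroD1. The part of these markers, and of the mitochondrial share, in the results below was not tested.

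Of the 98 genes, 92 had enough counts to be tested. After NeuroD1 knockdown 45 of them fell and 5 rose at an adjusted p under 0.05, while 42 were not called. The background over all 17537 genes tested was 28.2% lower and 26.8% higher, against 48.9% lower and 5.43% higher among the oxidative phosphorylation genes. In bulk RNA, fewer cells of a kind and less RNA per cell cannot be told apart. None of the 92 passed a log2 fold change of 1 in size in either direction (background 5.14% lower and 8.79% higher). The median log2 fold change was -0.16, against 0.01 over all genes tested, and the values ran from -0.65 for NDUFA6 to 0.65 for COX4I2, which was not called. In 56 of the 92 genes both shNeuroD1 libraries lay below both shControl libraries, and in 12 both lay above, where the background was 37.7% and 38.4%.

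These counts depended on the control libraries. Relative to the mean of the shControl libraries, the median over the 92 genes was 0.05 and -0.05 on the log2 scale in shControl 1 and 2, and -0.14 and -0.19 in shNeuroD1 1 and 2. The gap between the control libraries was thus about as wide as the gap between shControl 2 and shNeuroD1 1. Without shControl 1, 22 genes fell and 5 rose, and the median was -0.09. The shares were then 23.9% lower and 5.43% higher among the oxidative phosphorylation genes, and 18.8% and 15.5% among all genes. Without shControl 2, 41 fell (44.6%, against 19.7% of all genes) and 1, ATP5MF, rose (1.09%, against 15.3%), and the median was -0.23. 20 of the 45 falls were called in each of the 4 fits that left out a library. Where libraries were scaled by their total alone, the median of all genes moved to 0.12, that of the oxidative phosphorylation genes to -0.05, and the calls to 23 lower (25%, against 20.8% of all genes) and 11 higher (12%, against 34.9%).

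**Figure D1:**
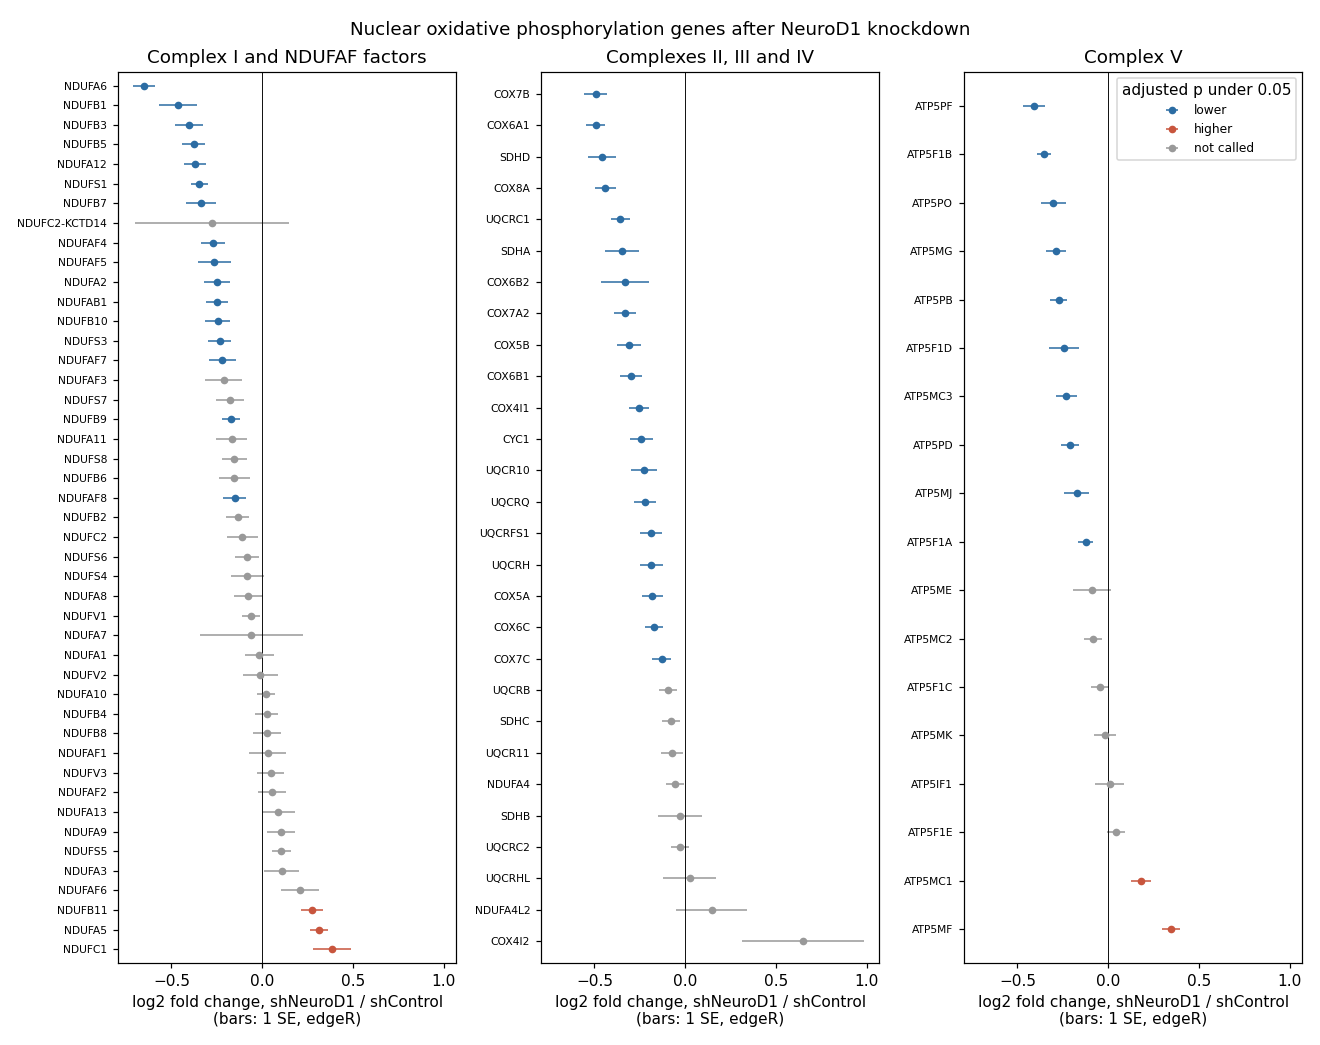
Log2 fold change (shNeuroD1 over shControl, edgeR) of all but 1 of the 92 tested nuclear oxidative phosphorylation genes, in panels for complex I with its assembly factors, complexes II to IV, and complex V. Points are estimates and bars 1 SE, blue for genes lower and red for genes higher at an adjusted p under 0.05, grey for genes not called. The blue points lie between -0.12 and -0.65, and the 5 red points between 0.18 and 0.39.

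Promoter sequences of 6 genes are given as examples, because many respiratory genes share promoter elements. They were chosen with the values known and are not the 6 clearest changes. Promoters of 77 of the 98 genes were found by symbol in the RefSeq table (GRCh38.p14), and for 68 of these the RefSeq start lay within 1000 bases of the GENCODE start. Shown are the 250 bases before the RefSeq start on the gene's own strand for 4 genes that fell (NDUFA6, chr22:42090773-42091022, minus strand; COX7B, chrX:77899218-77899467, plus strand; COX6A1, chr12:120437863-120438112, plus strand; SDHD, chr11:112086623-112086872, plus strand) and 2 that rose (NDUFC1, chr4:139302552-139302801, minus strand; NDUFB11, chrX:47144703-47144952, minus strand). RefSeq starts can lie inside the outermost GENCODE transcript. By the GENCODE positions given with each gene, the NDUFB11 stretch lies wholly and the NDUFA6 stretch mostly inside the gene, those of COX7B, COX6A1 and SDHD reach into it, and that of NDUFC1 lies before it. Capitals mark matches to 6 short motifs on either strand: TGCGCA (core of the NRF1 site), CCGGAAG (core of many ETS sites, the GABP site included), AAGATGG (core of the YY1 site) and 3 E-boxes. The E-boxes searched were CAGCTG and, with another central pair of bases, CAGATG, both of a kind bound by neuronal factors such as NeuroD1, and the MYC type CACGTG.
NDUFA6: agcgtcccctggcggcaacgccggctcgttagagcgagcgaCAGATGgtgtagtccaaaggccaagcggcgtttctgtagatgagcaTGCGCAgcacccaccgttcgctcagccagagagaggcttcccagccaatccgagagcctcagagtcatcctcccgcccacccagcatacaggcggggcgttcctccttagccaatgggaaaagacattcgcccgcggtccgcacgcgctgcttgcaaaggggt
COX7B: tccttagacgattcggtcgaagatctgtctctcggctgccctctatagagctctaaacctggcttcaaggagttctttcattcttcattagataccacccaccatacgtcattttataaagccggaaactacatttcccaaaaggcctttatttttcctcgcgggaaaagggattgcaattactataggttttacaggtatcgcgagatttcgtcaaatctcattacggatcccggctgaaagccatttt
COX6A1: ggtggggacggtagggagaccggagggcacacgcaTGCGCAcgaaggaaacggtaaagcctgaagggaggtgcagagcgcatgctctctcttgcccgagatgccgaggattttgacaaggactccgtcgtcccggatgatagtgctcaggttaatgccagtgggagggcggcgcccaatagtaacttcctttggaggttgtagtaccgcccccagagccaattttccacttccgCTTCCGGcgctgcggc
SDHD: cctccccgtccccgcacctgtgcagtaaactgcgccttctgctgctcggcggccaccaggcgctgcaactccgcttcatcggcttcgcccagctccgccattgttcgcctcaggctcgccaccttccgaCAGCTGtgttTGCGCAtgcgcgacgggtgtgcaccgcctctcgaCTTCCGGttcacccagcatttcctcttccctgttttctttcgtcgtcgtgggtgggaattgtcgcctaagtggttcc
NDUFC1: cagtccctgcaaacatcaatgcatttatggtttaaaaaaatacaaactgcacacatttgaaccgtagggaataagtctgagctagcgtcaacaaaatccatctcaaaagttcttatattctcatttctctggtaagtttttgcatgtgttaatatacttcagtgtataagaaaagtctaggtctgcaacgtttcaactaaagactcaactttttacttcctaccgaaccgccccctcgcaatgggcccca
NDUFB11: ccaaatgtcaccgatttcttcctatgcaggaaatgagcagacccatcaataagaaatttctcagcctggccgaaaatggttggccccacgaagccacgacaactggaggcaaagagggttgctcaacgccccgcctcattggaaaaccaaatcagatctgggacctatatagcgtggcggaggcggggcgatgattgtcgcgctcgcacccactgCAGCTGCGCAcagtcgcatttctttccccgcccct

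NDUFA6 held a CAGATG E-box and the NRF1 core, COX6A1 the NRF1 and the ETS core, and SDHD a CAGCTG E-box with both cores. COX7B and NDUFC1 held no match to these letters. NDUFB11 held a CAGCTG E-box that overlaps the NRF1 core. Over all 77 promoters, the NRF1 core was present in 22.1% and the ETS core in 23.4%, against 7.05% and 8.82% of the 27305 promoters of the table and 9.14% and 11.9% of those of protein-coding genes. Among the oxidative phosphorylation genes that fell, 13 of 38 promoters held the ETS core and 7 of 38 the NRF1 core. Among those not called, 5 of 32 held the ETS core and 8 of 32 the NRF1 core. The E-boxes were present at 13% (CAGCTG), 7.79% (CAGATG) and 9.09% (CACGTG) of the 77 promoters, beside 13.8%, 12.2% and 6.49% of all promoters, and the YY1 core at 5.19% beside 3.77%. These shares are descriptions and were not tested.

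**Figure D2:**
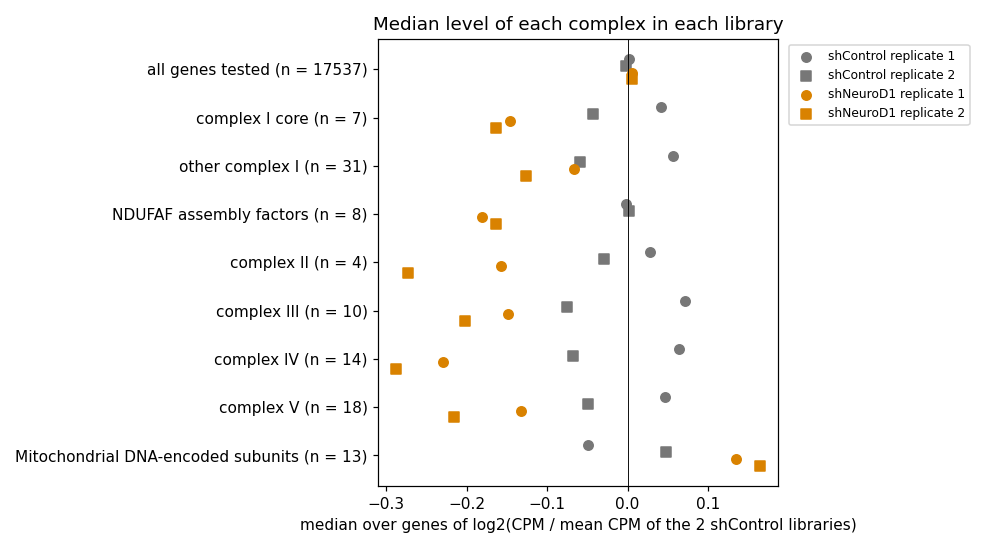
Median over genes of log2(CPM divided by the mean CPM of the 2 shControl libraries), for each library (grey, shControl; orange, shNeuroD1; circles, replicate 1; squares, replicate 2) and each group of genes. All 4 points of the genes tested lie near 0, complex IV has the lowest point of each shNeuroD1 library (-0.23 and -0.29), and the subunits encoded by mitochondrial DNA lie to the right in shNeuroD1.

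Complex I, the NADH dehydrogenase, had 19 calls among its 46 genes, all of which were tested. Of all 17537 genes tested, 9637 were called. In complex I 16 fell (34.8%, against 28.2% of all genes) and 3 rose (6.52%, against 26.8%), with a median of -0.12. The core subunits bind the cofactors that carry electrons from NADH. Of the 7, 2 fell (28.6%, against 28.2% of all genes tested). NDUFS1, the largest iron-sulfur subunit (chr2:206114817-206159603, minus strand), stood at 156.7 and 156.8 CPM in shControl and at 122.1 and 124.6 CPM in shNeuroD1. The libraries of a group lay close together and the groups far apart, with a log2 fold change of -0.35 (SE 0.047, adjusted p 2.0e-07, edgeR). NDUFS3 had 69.5 and 61.5 CPM in shControl and 55.5 and 55.6 CPM in shNeuroD1, a log2 fold change of -0.24, and its call was lost in 1 of the 4 fits without a library. NDUFS7 (-0.18), NDUFS8 (-0.15), NDUFV1 (-0.06) and NDUFV2 (-0.01) were not called. NDUFV1 and NDUFV2 form the NADH-oxidizing tip together with NDUFS1, and of the 3 only NDUFS1 was called. After a correction for gene length and GC content 5 of the 7 core subunits were called lower, where the share over all genes was 32.1%. NDUFS7 (-0.45) and NDUFV1 (-0.25) were then called, and NDUFV2 (-0.064) was not.

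The other complex I subunits held both the largest fall and 3 of the 5 rises. NDUFA6, a subunit of the LYR protein family (chr22:42085525-42090955, minus strand), had 82.9 and 79.3 CPM in shControl and 50.9 and 52.4 CPM in shNeuroD1. That is 63.7% of the control level, with a log2 fold change of -0.65 (SE 0.060, adjusted p 5.5e-11), and the call held in each fit without a library. NDUFB1, a small membrane arm subunit, had 22.7 and 20.5 CPM in shControl and 16.2 and 15.1 CPM in shNeuroD1 (log2 fold change -0.46, adjusted p 0.00037). NDUFB3, likewise of the membrane arm, had 41.0 and 43.5 CPM in shControl and 30.8 and 33.1 CPM in shNeuroD1 (log2 fold change -0.40, adjusted p 3.3e-05). In all 3 genes the groups did not overlap. Among 11 NDUFB genes, which encode subunits of the membrane arm, 6 fell (54.5%, against 28.2% of all genes tested). Of these 11, 1 rose (9.09%, against 26.8%). Among 12 NDUFA genes, 3 fell and 1 rose, both smaller shares than among all genes tested, and the median was -0.04. The difference between the NDUFB and NDUFA genes was not tested.

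NDUFC1 (chr4:139266880-139302551, minus strand), a small membrane arm subunit, rose from 17.0 and 15.1 CPM to 21.1 and 20.8 CPM, a log2 fold change of 0.39 (SE 0.10, adjusted p 0.0023). NDUFA5, a subunit of the peripheral arm (chr7:123536997-123558255, minus strand), rose from 134.2 and 122.2 CPM to 153.7 and 164.4 CPM, a log2 fold change of 0.31 (SE 0.051, adjusted p 4.8e-06). NDUFB11, an X-linked membrane arm subunit (chrX:47142216-47145504, minus strand), rose from 106.9 and 89.6 CPM to 121.4 and 116.1 CPM, a log2 fold change of 0.28 (SE 0.060, adjusted p 0.00024). The groups did not overlap, but the calls of all 3 were lost without shControl 2, and NDUFB11 stood at 0.095 (adjusted p 0.15) after a correction for gene length and GC content. NDUFC1 shares exons with MGARP on its own strand, and NDUFB11 with RBM10 on the other.

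NDUFA6-DT, a noncoding gene that starts beside NDUFA6 on the opposite strand and shares exon sequence with it, moved the other way. Its counts were 68 and 64 in the shControl libraries but 165 and 148 after knockdown, which is 1.25 on the log2 scale (SE 0.17, adjusted p 1.6e-07 by edgeR). This gene was chosen after its values were seen. The use of strand in counting was not stated, so reads of the overlap cannot be told apart.

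Of the 8 NDUFAF assembly factors 4 fell (50%, against 28.2% of all genes tested) and none rose (against 26.8%). Their median was -0.18. NDUFAF4, which acts early in assembly, had 52.9 and 54.9 CPM in shControl and 45.6 and 43.7 CPM in shNeuroD1 (log2 fold change -0.27, adjusted p 0.00087). NDUFAF5 (-0.26) and NDUFAF7 (-0.22), both of the methyltransferase family, and NDUFAF8 (-0.15) also fell. NDUFAF3 (-0.21), NDUFAF1 (0.03), NDUFAF2 (0.05) and NDUFAF6 (0.21) were not called. The size of the 4 falls varied with the libraries kept. Over the fits without a library it ran from -0.31 to -0.24 for NDUFAF4 and from -0.34 to -0.20 for NDUFAF5. For NDUFAF7 it ran from -0.25 to -0.19, and for NDUFAF8 from -0.25 to -0.079. After the correction for length and GC content NDUFAF4 (-0.15), NDUFAF5 (-0.18) and NDUFAF7 (-0.16) were no longer called.

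Complex II, the succinate dehydrogenase, has no subunit encoded by mitochondrial DNA. 2 of its 4 genes fell (50%, against 28.2% of all genes tested) and none rose (against 26.8%). SDHD, a membrane anchor (chr11:112086773-112120013, plus strand), had 44.2 and 41.8 CPM in shControl and 32.9 and 29.6 CPM in shNeuroD1. The groups did not overlap, and the log2 fold change was -0.46 (SE 0.077, adjusted p 6.4e-06). SDHD shares exons with TIMM8B on the opposite strand. SDHA, the flavoprotein that oxidizes succinate, had 25.9 and 26.5 CPM in shControl and 21.7 and 19.4 CPM in shNeuroD1 (log2 fold change -0.35, adjusted p 0.0020), and was called in 1 of the 4 fits without a library. SDHB, the iron-sulfur subunit, had 19.5 and 14.7 CPM in shControl and 17.6 and 15.9 CPM in shNeuroD1, and its groups overlapped (log2 fold change -0.03). SDHC, the other anchor, was at -0.08 and was not called.

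In complex III, the cytochrome bc1 complex, 6 of 10 genes fell (60%, against 28.2% of all genes tested). None rose (against 26.8%), and the median was -0.19. UQCRC1, a core protein on the matrix side (chr3:48599002-48610976, minus strand), had 116.2 and 118.1 CPM in shControl and 91.0 and 92.1 CPM in shNeuroD1. Its log2 fold change was -0.36 (SE 0.051, adjusted p 4.5e-07). Its partner UQCRC2 had 127.8 and 127.7 CPM in shControl and 124.0 and 126.1 CPM in shNeuroD1, and was not called (log2 fold change -0.03, adjusted p 0.62). Both electron-carrying subunits encoded in the nucleus fell: CYC1, the cytochrome c1, at -0.24 (adjusted p 0.0018) and UQCRFS1, the Rieske iron-sulfur protein, at -0.19 (adjusted p 0.0098). UQCR10 (-0.23), UQCRQ (-0.22) and UQCRH (-0.19) also fell, and UQCRB (-0.09) and UQCR11 (-0.07) were not called. The median of this complex varied with the libraries kept. It was -0.10 without shControl 1, -0.29 without shControl 2, -0.20 without shNeuroD1 1 and -0.15 without shNeuroD1 2. UQCRHL, an intronless copy of UQCRH, had 133 to 144 counts per library and a log2 fold change of 0.02, and the split of reads between the near-identical copies is uncertain.

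Complex IV, the cytochrome c oxidase, had the lowest median of the complexes, -0.28. Of its 14 tested genes 11 fell (78.6%, against 28.2% of all genes tested) and none rose (against 26.8%). The median was -0.24 without shControl 1 and -0.32 without shControl 2. COX6A1 (chr12:120438090-120440742, plus strand) had 314.0 and 267.7 CPM in shControl and 207.9 and 205.2 CPM in shNeuroD1. The control libraries stood apart from each other, but both lay above both knockdown libraries, with a log2 fold change of -0.49 (SE 0.052, adjusted p 1.3e-09). COX6A1 shares exons on its own strand with an unnamed gene (ENSG00000111780). COX7B (chrX:77899438-77907373, plus strand) had 78.9 and 70.6 CPM in shControl and 53.1 and 52.9 CPM in shNeuroD1, with a log2 fold change of -0.49 (SE 0.063, adjusted p 5.8e-08). COX8A had 118.2 and 108.1 CPM in shControl and 85.9 and 80.9 CPM in shNeuroD1 (log2 fold change -0.44, adjusted p 4.6e-08). These small nuclear subunits surround the catalytic core, which mitochondrial DNA encodes. NDUFA4 had 194.7 and 172.4 CPM in shControl and 177.4 and 175.2 CPM in shNeuroD1, and its groups overlapped (log2 fold change -0.06, adjusted p 0.34).

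Several complex IV subunits exist as tissue forms, and the forms used outside heart and muscle were those present. COX6A1, COX7A2, COX7B and COX8A had 806 to 4628 counts in each library, while the muscle form COX6A2 and COX7B2, a copy of COX7B, had 0 counts in all 4 libraries, and the muscle form COX7A1 had 3, 1, 2 and 3 counts. COX8C had no count in shControl and 3 and 5 counts in shNeuroD1, too few for a test. COX4I1, the common form, fell (-0.25, adjusted p 0.00018), as did COX7A2 (-0.33) and COX6B1 (-0.30). COX4I2, a form described in lung and in hypoxia, had counts of 20 and 21 in the shControl libraries, then 30 and 34 after knockdown, with a log2 fold change of 0.65 that was not called (SE 0.34, adjusted p 0.10). COX6B2, known as a testis form, had 190 to 194 counts in shControl and 149 to 154 in shNeuroD1 (log2 fold change -0.33, adjusted p 0.033), a call lost in each of the 4 fits without a library. COX6C (-0.17) and COX7C (-0.13) fell least among the complex IV genes called, and COX7C kept its call in 1 of those fits. NDUFA4L2, a relative of NDUFA4 that hypoxia induces, had 65 to 81 counts per library and was not called. The smallest counts do not bear a comparison, and a count of 0 limits only what these libraries could show.

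**Figure D3:**
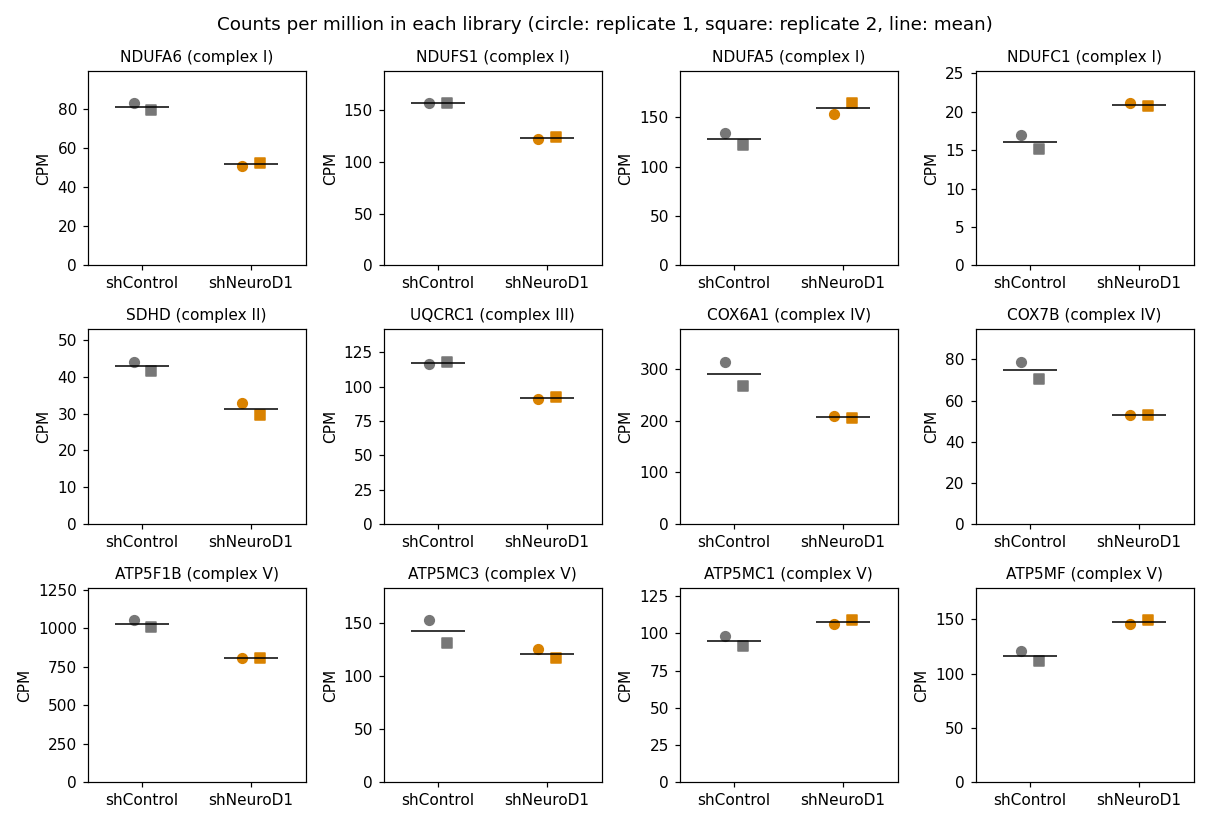
CPM in each library (grey, shControl; orange, shNeuroD1; circles, replicate 1; squares, replicate 2; lines, group means) for 12 genes of complexes I to V, each axis starting at 0. NDUFA5, NDUFC1, ATP5MC1 and ATP5MF lie higher in shNeuroD1 and the other 8 lower, with no overlap between groups.

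In complex V, the ATP synthase, 10 of 18 tested genes fell (55.6%, against 28.2% of all genes tested). In the same complex 2 rose (11.1%, against 26.8%), and the median was -0.15. The catalytic head is made from ATP5F1A to ATP5F1E, of which 3 of 5 fell (60%, against the same 28.2%). ATP5F1B, the catalytic beta subunit (chr12:56638175-56646068, minus strand), had the most counts of all 98 genes, with 1052 and 1009 CPM in shControl and 804.6 and 809.9 CPM in shNeuroD1. Its log2 fold change was -0.35 (SE 0.039, adjusted p 2.8e-09). The alpha subunit ATP5F1A, with which it forms the catalytic ring, went from 467.5 and 449.7 CPM to 420.6 and 421.3 CPM, a log2 fold change of -0.12 (adjusted p 0.011). The calls of ATP5F1A and ATP5F1D each held in 2 of the 4 fits without a library. ATP5F1D fell (-0.24), and ATP5F1C (-0.05) and ATP5F1E (0.04) were not called. In the stalk and membrane part ATP5PF, the coupling factor 6, had 77.1 and 74.8 CPM in shControl and 60.1 and 54.2 CPM in shNeuroD1 (log2 fold change -0.41, adjusted p 1.0e-06). ATP5PO (-0.30), ATP5MG (-0.29) and ATP5PB (-0.27) fell as well. ATP5IF1, the inhibitor that holds the enzyme when the membrane potential drops, stood at 31.8 and 30.5 CPM in shControl and 31.8 and 30.9 CPM in shNeuroD1.

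The 3 genes of the c subunit, which encode the same mature protein of the rotating ring with different import sequences, did not share a direction. ATP5MC1 (chr17:48892765-48895871, plus strand) had 98.2 and 91.7 CPM in shControl and 106.2 and 108.8 CPM in shNeuroD1, a rise of 0.18 (SE 0.053, adjusted p 0.0046) that was called in 2 of the 4 fits without a library and stood at -0.02 after a correction for gene length and GC content. ATP5MC2 was not called (-0.08, adjusted p 0.16). ATP5MC3 had 152.7 and 131.6 CPM in shControl and 125.3 and 116.9 CPM in shNeuroD1, a fall of -0.23 (SE 0.057, adjusted p 0.00090). The differences between these genes were not tested. ATP5MF, the f subunit (chr7:99448475-99466331, minus strand), rose from 121.0 and 111.2 CPM to 145.7 and 148.9 CPM, a log2 fold change of 0.34 (SE 0.050, adjusted p 6.5e-07), and was the one rise called in each of the 4 fits without a library. After the correction for length and GC content it stood at 0.12 (adjusted p 0.046). It shares exons with its read-through gene ATP5MF-PTCD1, which had 4 to 7 counts per library and was not tested. ATP5MGL had 0 counts in all libraries.

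Per kilobase of a representative GENCODE transcript, the highest shControl levels were 560.3 CPM for ATP5F1B in complex V, 508.5 for COX6A1 in complex IV, 183.3 for NDUFB9 in complex I, 167.1 for UQCRQ in complex III and 29.9 for SDHD in complex II. Annotated transcripts of these genes differ in length, so that order depends on the transcript chosen, and not only for neighbouring genes. SDHC averaged 130.4 CPM in shControl against 43.0 for SDHD, but its representative transcript has 13566 bases against 1439. Likewise UQCRB averaged 153.5 CPM over 5575 bases, and UQCRQ 97.9 CPM over 586 bases. Exons of 52 of the 98 genes overlap another gene in GENCODE 29, 27 on the same strand. NDUFA7 had 32 to 60 counts per library beside an overlapping gene on its own strand, and was not called. Pseudogenes with symbols of this family took between 0.10% and 0.11% of the counts of the 98 genes.

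The authors also deposited FPKM values (fragments per kilobase of transcript, scaled to sequencing depth) of assembled transcripts, in which 77 of the 98 genes were listed and 73 had a mean of at least 1 FPKM. In a limma fit of log2(FPKM + 1) none of the 73 was called, and 5 were lower and 4 higher at an unadjusted p under 0.05. In that fit 489 of 10083 genes were called in all. The sign was the same as in the counts for 51 of the 73, and their median was -0.11. UQCRC1 (0.10), ATP5PO (0.30), COX6B1 (0.37) and NDUFAF5 (0.25), all called lower by counts, had positive differences of log2(FPKM + 1). Single libraries moved by more than the effect in these tables: NDUFB9 had 91.2, 100.9, 131.8 and 12.9 FPKM and COX6C 133.7, 126.6, 123.0 and 38.8 FPKM in shControl 1, shControl 2, shNeuroD1 1 and shNeuroD1 2, although their CPM were alike within each group. The same tables gave the inclusion of 6 exons of 5 genes for which included and skipped forms together reached 10 FPKM in every library. The 37-base exon of ATP5F1C that is skipped in muscle (chr10:7806974-7807010) was included in over 99.9% of its transcripts in all 4 libraries, at 44.5, 45.8, 47.3 and 48.1 FPKM. No exon shifted by more than 10 percentage points between the groups.

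Most of the 13 subunits encoded by mitochondrial DNA went the other way from most nuclear genes, with 9 positive and 4 negative log2 fold changes. Of these 13 genes 8 rose (61.5%, against 26.8% of all genes tested) and 2 fell (15.4%, against 28.2%). Their median log2 fold change was 0.14. MT-ATP8 rose from 89.1 and 105.7 CPM to 144.0 and 128.2 CPM (0.48, adjusted p 6.6e-08), and MT-ATP6 from 1224 and 1295 CPM to 1626 and 1736 CPM (0.42, adjusted p 1.7e-10). Both encode subunits of complex V. MT-ND6, the one protein encoded on the other strand of mitochondrial DNA, fell from 431.4 and 474.6 CPM to 362.9 and 351.7 CPM (-0.34, adjusted p 7.3e-08), and MT-ND5 fell from 2661 and 2932 CPM to 2436 and 2507 CPM (-0.18, adjusted p 0.00039). Without shControl 1, 5 rose and 3 fell. The difference between nuclear and mitochondrial genes was not tested.

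**Figure D4:**
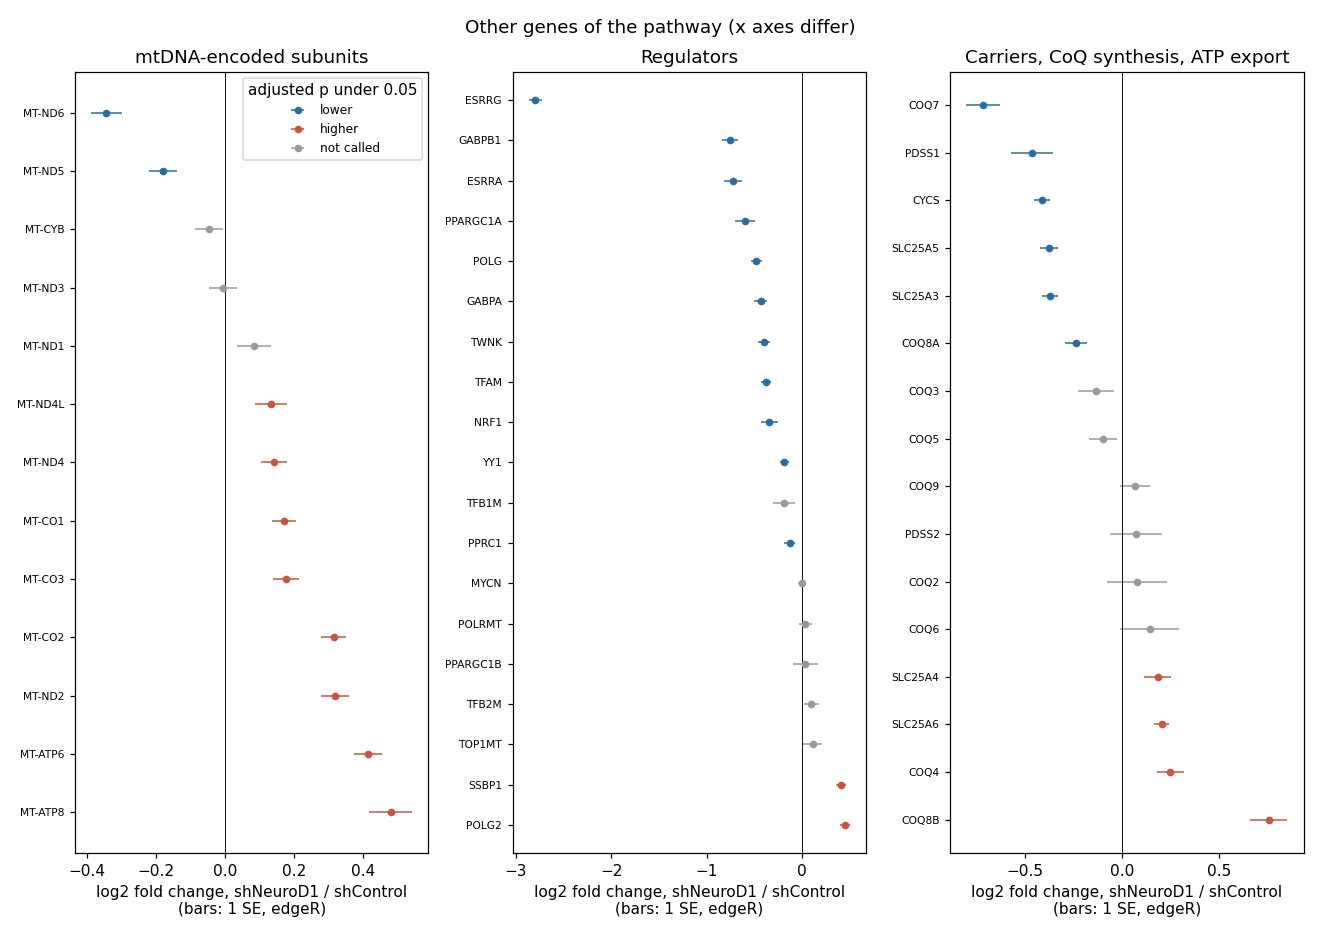
Log2 fold change (edgeR, bars 1 SE) of the genes of 3 further lists: subunits encoded by mitochondrial DNA, regulators of respiratory genes, and mobile carriers with coenzyme Q synthesis and ATP export. Blue is lower, red higher at an adjusted p under 0.05, grey not called, and the x axes differ between panels. ESRRG stands apart at -2.80.

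Of 20 regulators of respiratory genes, 19 were tested. Among these 11 fell (57.9%, against 28.2% of all genes tested) and 2 rose (10.5%, against 26.8%). ESRRG, an estrogen-related nuclear receptor known to activate genes of energy metabolism, fell from 126.9 and 123.7 CPM to 18.9 and 17.1 CPM, a log2 fold change of -2.80 (SE 0.068, adjusted p 2.0e-25), about as far as NEUROD1. GABPB1, the partner of GABPA in the ETS factor GABP, fell from 38.3 and 34.1 CPM to 22.1 and 20.8 CPM (-0.76, adjusted p 7.7e-09), and GABPA also fell (-0.44). The related receptor ESRRA (-0.72), the coactivator PPARGC1A (-0.60), NRF1 (-0.35) and TFAM, which packages and transcribes mitochondrial DNA (-0.38), fell as well. POLG2, an accessory subunit of the mitochondrial DNA polymerase, rose from 85.6 and 85.7 CPM to 114.4 and 119.0 CPM (0.45, adjusted p 8.7e-09, edgeR). SSBP1, which binds single-stranded mitochondrial DNA, rose by 0.40. POLG, of the same polymerase, fell from 78.8 and 80.8 CPM to 57.8 and 56.5 CPM (-0.48, adjusted p 2.0e-08, edgeR), and TWNK also fell (-0.40). PPARGC1B (0.03), TFB1M (-0.19), TFB2M (0.10), POLRMT (0.03), TOP1MT (0.11) and MYCN (-0.01) were not called. MYC had at most 7 counts in a library.

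Of 16 genes of mobile carriers, coenzyme Q synthesis and ATP export, 6 fell (37.5%, against 28.2% of all genes tested). Another 4 rose, a slightly smaller share than the 26.8% of all genes. The median log2 fold change of the 16 was -0.015, close to the 0.01 of all genes tested. CYCS, the cytochrome c that links complexes III and IV, fell from 459.0 and 422.8 CPM to 329.0 and 333.7 CPM (-0.41, adjusted p 1.1e-09). COQ7, a hydroxylase of coenzyme Q synthesis, fell by 0.71 (adjusted p 2.1e-08) and PDSS1, which makes its isoprenoid tail, by 0.46, while COQ8B rose by 0.76 (adjusted p 4.3e-08) and COQ4 by 0.25, which was 0.056 and not called after the correction for length and GC content. Of 50 assembly factors of complexes II to V and further factors of complex I, 15 fell and 9 rose, with a median of -0.06. Their shares were 30.0% and 18.0%, beside the same 28.2% and 26.8% of all genes. CMC2, a complex IV factor, fell by 0.63 (adjusted p 0.00038) and SDHAF1, a complex II factor, by 0.40, whereas NUBPL, which delivers iron-sulfur clusters to complex I, rose by 0.77 (adjusted p 5.8e-06) and FMC1, a complex V factor, by 0.60 (adjusted p 3.5e-05). Without shControl 1 the falls among the 50 went down to 6 and the rises to 8.

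**Figure D5:**
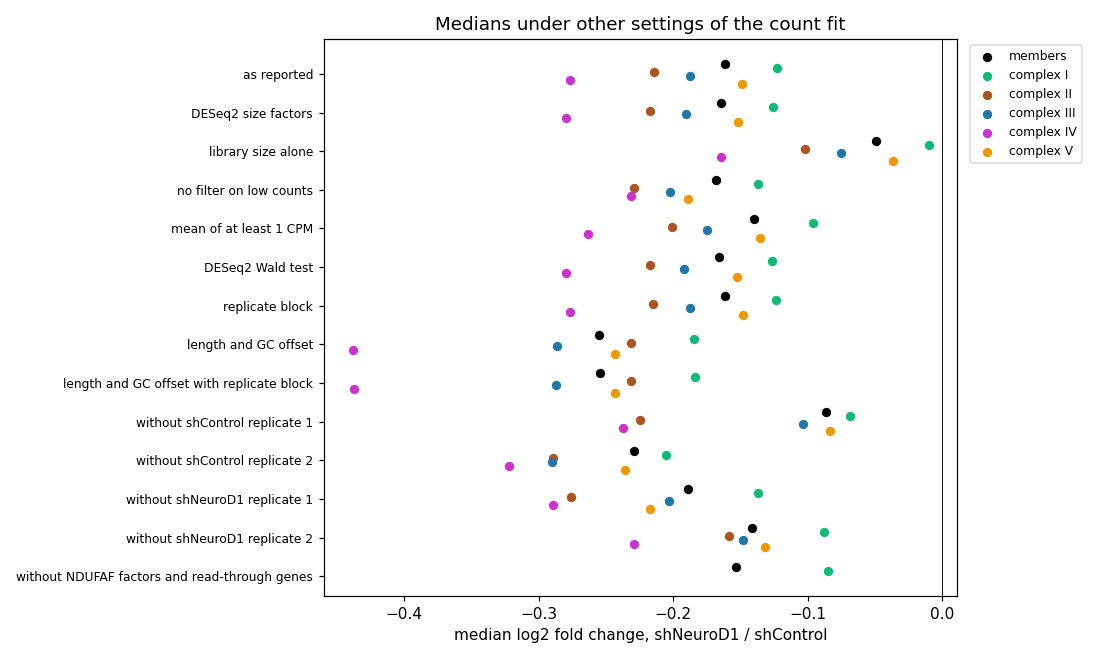
Median log2 fold change (x axis) of the tested genes and of each complex under each setting of the count fit (rows); each colour is a group. All medians stay below 0, from -0.01 for complex I with scaling by library size alone, where the median of all genes was 0.12, to -0.44 for complex IV with a correction for length and GC content.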

How the data were processed

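Poly(A) RNA of 4 IMR-32 libraries was analysed, 2 shControl and 2 shNeuroD1, grouped by their titles. Unnormalized read counts were deposited by the authors, 1 value per Ensembl gene (60612). The submitters' processing notes name cutadapt 1.9.1, HISAT2 2.0.1, HTSeq 0.6.1, DESeq2 and hg38, with no strand setting given in the sources used here. The authors also deposited FPKM values of transcript starts, ends and splicing events. A gene's FPKM was summed over its transcript starts, since other entries repeat the same transcripts.

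Symbols, positions and types came from the reference tables and GENCODE 29. Counts were tested in edgeR 4.0.16 under R 4.3.3 (filterByExpr, minimum count 10, TMM, quasi-likelihood F test, two-sided, Benjamini-Hochberg adjustment over 17537 genes). SE is the size of the log2 fold change divided by the square root of F. Fits were tested on simulated data. Alternatives were other scalings and filters, DESeq2 1.42.0, the replicate block, a length and GC offset, limma 3.58.1 on FPKM, and leaving out each library. Named were the 3 lowest and 3 highest tested genes of each of 7 groups, isoform families and untested genes. In each gene list, the 2 lowest and 2 highest called were named. TFAM, NRF1, GABPA, ESRRA, PPARGC1A, POLG, TWNK, MYC and MYCN were named after their values were seen. So were other regulators not called, other markers and further called members. Some genes that these rules cover are not reported here. The genes and lists were chosen with earlier results of these data known.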

Additional observations from a re-analysis of the deposited data

How the results depend on the processing

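The fold change of NEUROD1 lay between -2.84 and -2.66 in all count fits. It was not computed on FPKM, where the locus is merged with CERKL. Having 2 libraries a group limits the precision of every value. Replicate numbers do not pair the samples (correlation of deviations 0.016). The replicate block gave 47 lower and 5 higher genes.

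With library size alone 23 genes were lower and 11 higher, and the medians were -0.049 for the 92 genes, -0.010 for complex I, -0.10 for II, -0.075 for III, -0.16 for IV and -0.036 for V. The median of all genes was then 0.12. With an offset for gene length and GC content 54 genes were lower and 5 higher (58.7% and 5.43%, against 32.1% and 23.7% of all genes). The medians were then -0.25 for the 92 genes, -0.18 for I, -0.29 for III, -0.44 for IV and -0.24 for V. With the block added they were -0.25, -0.18, -0.29, -0.44 and -0.24. With log2(FPKM + 1) in limma 0 genes were lower and 0 higher, and complexes II, IV and V had medians of -0.13, -0.18 and -0.013. With log2(FPKM + 0.1) in limma 0 and 0 were called (3 and 3 at an unadjusted p under 0.05), and complexes IV and V had -0.18 and -0.012. A log2 fold change beyond 1 left 0 and 0. DESeq2 called 34 lower and 4 higher (37.0% and 4.35%, against 21.5% and 18.2% of all genes), and keeping genes of low count gave 35 and 5 (36.8% and 5.26%, against 13.4% and 11.6%). Leaving out a library gave 22 to 41 lower and 1 to 5 higher, and medians of -0.23 to -0.086 for the 92 genes, -0.21 to -0.068 for I, -0.29 to -0.16 for II, -0.29 to -0.10 for III, -0.32 to -0.23 for IV and -0.24 to -0.083 for V. Without the NDUFAF factors and read-through genes, a choice added after seeing the data, 41 were lower and 5 higher.

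Of 698 values of single genes under the settings with 4 libraries, 527 kept direction and call, 106 lost the call, 18 gained it and 47 changed sign. Over the 92 genes, named here or not, 18 changed sign with library size alone, 13 with the length and GC offset, 22 of 73 on FPKM and 5 to 9 in a fit without a library. Among the genes followed singly, with library size alone the sign changed for ATP5MC2 (0.030), MYCN (0.11), NDUFA4 (0.055), NDUFV1 (0.051), NDUFV2 (0.10), SDHB (0.082), SDHC (0.034), UQCR11 (0.041) and UQCRC2 (0.082). With a mean of at least 1 CPM it changed for MYCN (0.0059) and NDUFV2 (0.0010). With the length and GC offset, without and with the block, it changed for ATP5MC1 (-0.019 and -0.019), NDUFA4 (0.032 and 0.033), NDUFA4L2 (-0.074 and -0.074) and NDUFAF2 (-0.0025 and -0.0027). On FPKM, with 1 and with 0.1 added, it changed for ATP5F1E (-0.67 and -0.69), ATP5MC2 (0.14 and 0.14), ATP5PO (0.30 and 0.30), COQ4 (-0.11 and -0.11), COQ7 (0.21 and 0.24), COX6B1 (0.37 and 0.38), MYCN (0.13 and 0.13), NDUFA4 (0.042 and 0.044), NDUFAF1 (-0.24 and -0.28), NDUFAF5 (0.25 and 0.32), NDUFAF6 (-0.35 and -0.50), NDUFV1 (0.71 and 0.73), UQCR11 (0.037 and 0.038) and UQCRC1 (0.10 and 0.10). Of these, ATP5MC1, ATP5PO, COX6B1, NDUFAF5, UQCRC1, COQ7 and COQ4 had been called. Among the same genes, over the fits without a library the sign varied for ATP5F1E (-0.038 to 0.10), MYCN (-0.046 to 0.011), NDUFA4 (-0.15 to 0.021), NDUFAF1 (-0.0085 to 0.051), NDUFV2 (-0.047 to 0.0015), SDHB (-0.23 to 0.17), UQCRHL (-0.038 to 0.080). The cause of these changes was not tested.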
